A study of Caenorhabditis elegans with 39 samples.

Results

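In the germline of *Caenorhabditis elegans*, some mRNAs were higher in distal gonads of *mut-16* mutants and stayed near or below their wild type level in distal gonads of *prg-1* mutants. These genes were chosen by their own mRNA values. The mean normalized value in *mut-16* gonads had to reach 50, the ratio of *mut-16* to wild type means had to reach 2.5, and the ratio of *prg-1* to wild type means had to lie below 1.5, with 1 added to each mean. Rows of named pseudogenes and transposon families were left out first. The rule found 42 of 21104 rows, or 0.199%, out of 22844 rows in the table. A total of 462 rows met the *mut-16* conditions, so most of those raised in *mut-16* were also raised in *prg-1*. In 373 of them the *prg-1* ratio reached 2.5 as well, and in 47 it lay between 1.5 and 2.5.

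The gonad groups were *mut-16(pk710)*, *prg-1(n4357)* and the wild type strain N2. Both mutant strains had been crossed to N2 once before the animals were grown for dissection. All were gravid adults of 68 to 70 h grown at 20°C, from which the distal gonad arms were kept and the proximal arms discarded. Each genotype had 3 mRNA libraries and 3 small RNA libraries, and wild type whole animals of the same age and temperature were sequenced in 3 libraries of each kind. These are 24 of the 39 libraries of the series. The paper calls the 3 libraries of a group biological replicates, and the labels do not say that they came from separate cultures. The p-values therefore measure the spread between these libraries.

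22G-RNAs are small RNAs that start with a guanosine and are made by RNA-dependent RNA polymerases on an mRNA template, to which they are antisense. Those bound by the WAGO Argonautes are thought to silence their template, although the paper concludes that most of their target mRNAs are little affected. MUT-16 is a scaffold protein of the mutator complex that amplifies WAGO-class 22G-RNAs in foci at the nuclear rim. PRG-1 is the Piwi Argonaute that binds piRNAs, and it directs many germline mRNAs into the same amplification step. Other primary small RNAs enter that step without PRG-1.

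The libraries were checked first. The *mut-16* transcript averaged 949.9 ± 25.7 in gonads of its own mutant, against 2069 ± 17.9 in wild type gonads (normalized value, SD, n = 3 each). The *prg-1* transcript averaged 5414 ± 802 in its mutant, against 10549.5 ± 600.3 in wild type gonads. Genes of germ cells were present in all 9 gonad mRNA libraries, with a summed value of 10 markers of 44040 to 48645 in *mut-16*, 53691 to 62451 in *prg-1* and 51520 to 56286 in wild type gonads. Sperm markers were higher in the mutant libraries. Their sum over 39 genes was 4189 to 10263 in *mut-16*, 7387 to 37557 in *prg-1* and 275 to 1551 in wild type gonads, and their part in the results was not tested. The sum of 9 body wall muscle markers was 1132 to 1445 in *mut-16*, 1250 to 2543 in *prg-1* and 526 to 737 in wild type. For intestine, hypodermis and gonad sheath markers, the sums of both mutants overlapped those of wild type. Sums of oocyte and eggshell markers were 105623 to 106435 in *mut-16*, 96551 to 99406 in *prg-1* and 115157 to 119012 in wild type. In dissected tissue, fewer cells of a type and less RNA per cell cannot be told apart. The recovered small RNA reads came to 2317176 to 7051210 per gonad library and 505952 to 1642602 per whole animal library.

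Of the 42 rows, 38 carry gene sequence names and 4 are single transposon copies out of 587 such rows. The RefSeq table matched 36 of the 38 names, 33 as protein coding and 3 as pseudogenes (Y54G2A.21, F49F1.8 and Y37H9A.2). Only 9 of them have a gene name. They are *rnh-1.3*, a ribonuclease H gene, *ife-5*, a cap-binding translation initiation factor of the eIF4E family, *saeg-2*, a partner of the cGMP-dependent kinase EGL-4, *hmg-11*, a high mobility group gene, *scrm-4*, a phospholipid scramblase gene, *bath-21*, a gene with BTB and MATH domains, *nhr-15*, a nuclear hormone receptor gene, *mig-21*, which acts in the migration of Q neuroblasts, and *nssp-37*. Chromosome V held 11 of the 36 matched genes (30.6%), against 14.4% of all genes with a *mut-16* mean of at least 50. The 11 include F07B7.1 and F07B7.2 together with W09B7.1 and W09B7.2, rows identical to them in value, so copies add to this share. None of the 42 belongs to the histone or major sperm protein families. These families hold only 64 and 26 of the 6933 genes with a *mut-16* mean of at least 50, so nothing is read from this.

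Some of the rows cannot be told apart. F07B7.1 and W09B7.1 had identical values in every library, mRNA and small RNA alike, and so did F07B7.2 and W09B7.2. The 42 rows therefore hold 40 distinct profiles, and reads of these near-identical copies may have been split or shared between them.

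mRNA values in mutant and wild type gonads chose the members, so the following is a description with no test. The median over members was 237 in *mut-16* gonads, 27.3 in *prg-1* gonads, against 26.4 in wild type gonads. The *mut-16* ratio had a median of 5.37 and ran from 2.54 to 81.3, while the *prg-1* ratio had a median of 1.03 and ran from 0.122 to 1.47. The 0.122 belongs to WBTransposon00000003, which was above 0 in only 1 wild type library and no *prg-1* library, so it depends on the added 1. In 40 of 42 rows all *mut-16* values lay above all wild type values, which was so in 28.4% of the 9943 mRNAs tested. In 40 of 42 rows they also lay above all *prg-1* values, against 21.9% of mRNAs. Over all mRNAs tested, limma called 15.5% higher and 4.6% lower in *mut-16*, and 20.7% higher and 9.53% lower in *prg-1*. The counts of members follow from the rule and nothing is read from them.

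**Figure D1:**
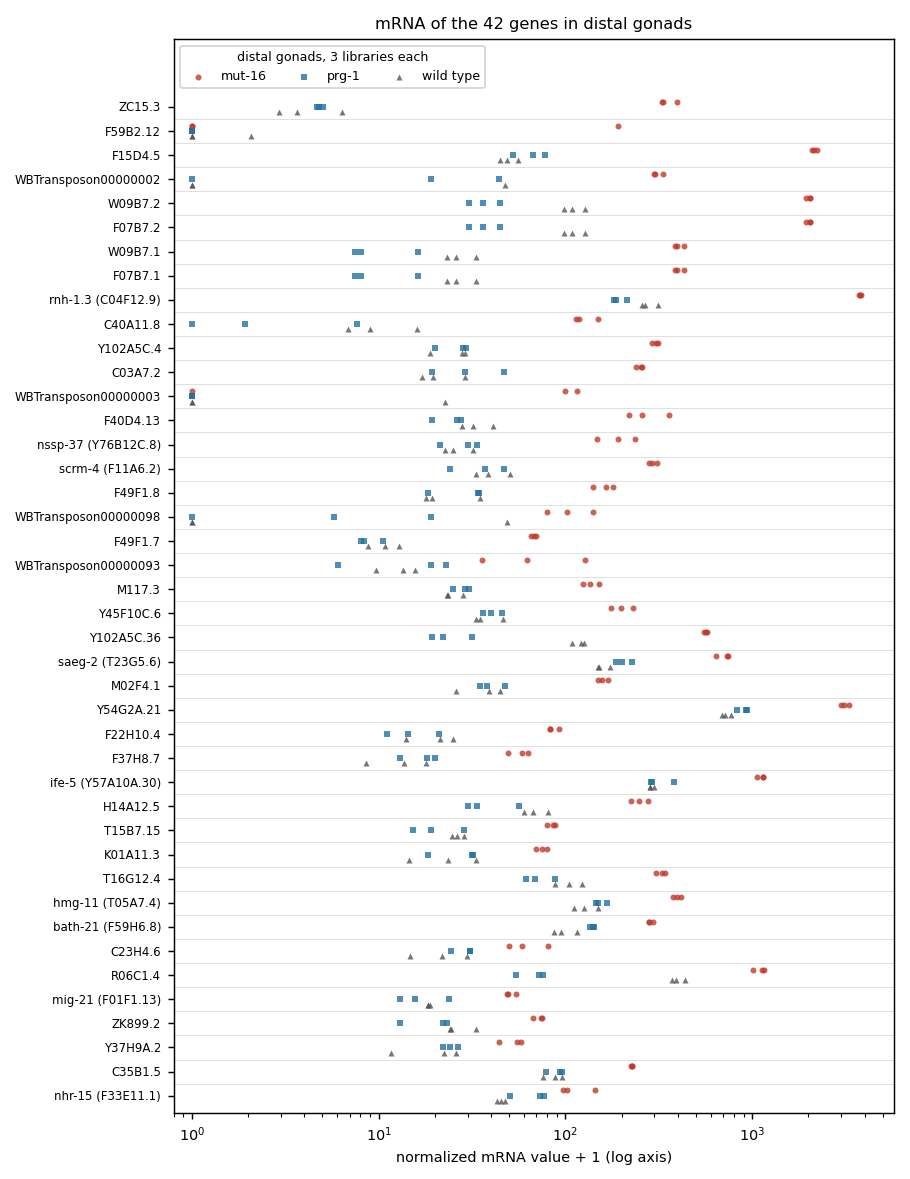
Normalized mRNA value plus 1 (log axis) of the 42 members in each distal gonad library, *mut-16* (circles), *prg-1* (squares) and wild type (triangles), 3 libraries per genotype, ordered by the *mut-16* ratio. The *mut-16* values of 40 rows lie to the right of all wild type values, and the *prg-1* values lie left of all wild type values in 11 rows and right of them in 4.

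*rnh-1.3* (C04F12.9), whose product belongs to the enzymes that cleave RNA in RNA-DNA hybrids, had the highest mRNA value of the set. Its normalized values were 3731, 3823 and 3769 in *mut-16* gonads and 212, 185 and 181 in *prg-1* gonads, against 256, 265 and 312 in wild type gonads. The *mut-16* libraries stood far above the rest, and the *prg-1* libraries were all slightly below wild type. Values of genes are not corrected for length here, so an order between genes is not an order of molecules.

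F15D4.5 showed one of the widest separations. Its mRNA was at 2219, 2086 and 2139 in *mut-16* gonads and 51.5, 76.5 and 65.9 in *prg-1* gonads, against 47.6, 43.7 and 55.1 in wild type gonads. ZC15.3 had the highest ratio, 81.3, from a wild type level close to 0. Its values were 327, 334 and 395 in *mut-16* gonads, 3.68, 4.03 and 3.82 in *prg-1* gonads, against 1.94, 2.68 and 5.40 in wild type gonads. At that level the ratio depends on the added 1.

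The mRNA of the F07B7.2 and W09B7.2 rows was at 1946, 2043 and 2039 in *mut-16* gonads and 29.4, 35.2 and 43.9 in *prg-1* gonads, against 97.2, 107 and 126 in wild type gonads. All *prg-1* libraries were therefore below all wild type libraries while *mut-16* was above them. The adjacent rows F07B7.1 and W09B7.1 gave 387, 428 and 395 in *mut-16*, 6.44, 7.05 and 15.3 in *prg-1* and 22.4, 25.0 and 32.4 in wild type, with the same order of groups.

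R06C1.4 had the same order with a high wild type level. Its mRNA was at 1016, 1124 and 1158 in *mut-16* gonads and 53.3, 71.5 and 74.5 in *prg-1* gonads, against 391, 369 and 435 in wild type gonads. Y102A5C.36 gave 554, 568 and 570.1 in *mut-16* gonads, 18.4, 21.1 and 30.6 in *prg-1* gonads, against 125, 120.4 and 107 in wild type gonads. In all, 11 of 42 rows had every *prg-1* value below every wild type value, against 24.7% of mRNAs tested, and 4 had every *prg-1* value above, against 29.3%. The *prg-1* ratio was under 0.5 in 8 rows, WBTransposon00000003 among them.

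The members with a gene name covered most of the range. *ife-5* (Y57A10A.30) was at 1067, 1142 and 1137 in *mut-16*, 289, 287 and 382 in *prg-1* and 283, 284 and 296 in wild type gonads. *saeg-2* (T23G5.6) was at 739, 730.1 and 637 in *mut-16*, 225, 199 and 186 in *prg-1* and 173, 151 and 149 in wild type. For *ife-5* the *prg-1* and wild type values overlapped, and for *saeg-2* all *prg-1* values were slightly above wild type.

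*hmg-11* (T05A7.4) gave 375, 416 and 397 in *mut-16*, 149, 145 and 166 in *prg-1* and 149, 125 and 110.2 in wild type gonads. *scrm-4* (F11A6.2), named for lipid scrambling between membrane leaflets, gave 279, 289 and 307 in *mut-16*, 23.0, 36.3 and 45.8 in *prg-1* and 32.1, 37.5 and 49.7 in wild type gonads. In both genes the *mut-16* values stood apart and the other genotypes met or overlapped.

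*bath-21* (F59H6.8) and *nhr-15* (F33E11.1) lay close to the limit on the *prg-1* ratio, at 1.41 and 1.47. *nhr-15* also had the lowest *mut-16* ratio, with 96.6, 101 and 144 in *mut-16*, 71.7, 75.5 and 49.7 in *prg-1* and 46.7, 41.9 and 44.3 in wild type gonads. Just outside the limits lay *pcp-5* with a *mut-16* ratio of 2.48, and the histone genes *his-34* and *his-29*, identical in value, with a *prg-1* ratio of 1.58. *mig-21* (F01F1.13) was the member nearest the limit on level, with values of 53.5, 48.6 and 47.9 in *mut-16* gonads, and *fbxa-10*, an F-box gene, fell short of it with a mean of 46.9.

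Y54G2A.21, annotated as a pseudogene, was already well expressed in wild type. Its mRNA was at 3296, 2984 and 3108 in *mut-16*, 933, 927 and 833 in *prg-1* and 712, 766 and 692 in wild type gonads. *nssp-37* (Y76B12C.8) was at 147, 234 and 191 in *mut-16*, against 31.1, 24.1 and 21.6 in wild type gonads. C40A11.8 was close to absent in the other genotypes, with 149, 113 and 118 in *mut-16*, 0.92, 0 and 6.68 in *prg-1* and 5.83, 8.03 and 15.1 in wild type gonads. Over all 42 rows the *mut-16* ratio was at least 10 in 12 and under 5 in 20, and the wild type mean was under 30 in 23.

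A few rows rest on few libraries. F59B2.12 was at 0, 191 and 0 in *mut-16* gonads and at or near 0 in all *prg-1* and wild type libraries, so its membership comes from 1 library. WBTransposon00000003 was at 0, 114 and 99.0 in *mut-16*, 0 in each *prg-1* library and 0, 0 and 21.6 in wild type. WBTransposon00000002 was steadier, at 302, 296 and 332 in *mut-16*, 0, 18.1 and 43.0 in *prg-1* and 0, 0 and 46.4 in wild type. When each of the 9 libraries was left out in turn, the rule found 39 to 47 rows, and 27 of the 42 were found every time.

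Small RNAs were read next, from libraries whose values the rule did not use. The paper states that its mRNA and small RNA data share the same RNA samples, so these libraries are not from other gonads. Of the 42 rows, 34 had a 22G-RNA locus of the same name, and all 34 loci were of the WAGO class in the authors' annotation. This was 81.0% of members, against 9.77% of the gene rows in the table. Those gene rows were not held to the mRNA level that the rule asked of members. Among the 373 rows raised in both mutants 10.99% had a WAGO-class locus, and among the 47 rows in between it was 80.9%. No member had a CSR-1-class locus, and neither did any of the 373 rows raised in both mutants or the 47 rows in between. The 8 without a locus were *ife-5*, *mig-21*, H14A12.5, ZK899.2, F59B2.12, C23H4.6 and the transposon rows 00000002 and 00000003.

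In *mut-16* gonads, 22G-RNAs fell at 34 of 34 member loci relative to wild type (limma on log2 of the value plus 1, adjusted p under 0.05 over 8031 small RNA features and a change of at least 1.3-fold). Of all features tested 33.6% were lower, and of all 2394 WAGO-class loci 99.7% were lower, so the count is that of the class. In the deposited data the names of these loci carry the label mut, so the class may itself have been drawn up from losses in mutator mutants. The median log2 change was -5.33 for members, against -5.58 for WAGO-class loci and 0.24 for all features. Member loci had more 22G-RNAs in wild type gonads, with a median value of 3092, against 240 over the class. The class was not matched to them in level.

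*saeg-2* 22G-RNAs were at 70.3, 87.6 and 154 in *mut-16* gonads, against 11594, 12546 and 10998 in wild type gonads (log2 change -6.88, SE 0.26, adjusted p = 1.6e-07, limma). *hmg-11* 22G-RNAs were at 52.4, 63.9 and 104 in *mut-16* gonads, against 12580.5, 11919 and 11011 in wild type gonads (-7.37). In both genes the *mut-16* libraries lay far below every wild type library.

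The loci differed in how much was left. The mean *mut-16* value was 0.177% to 32.7% of the wild type mean, with a median of 2.57%, against a median of 1.48% over all WAGO-class loci tested. F37H8.7 kept least, at 2.76, 1.183 and 0.984 in *mut-16* gonads, against 896, 1049.6 and 838 in wild type gonads. F07B7.2 and W09B7.2 kept most, at 521, 532 and 635 in *mut-16* gonads, against 1942, 1691 and 1531 in wild type gonads (log2 change -1.61, SE 0.11, adjusted p = 3e-07, limma).

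ZC15.3, with the highest mRNA ratio, was also among those that kept more, at 761, 836 and 659 in *mut-16* gonads, against 3263, 3114 and 3308 in wild type gonads (-2.11). K01A11.3 kept 22.6%, R06C1.4 17.1%, C40A11.8 16.3% and F15D4.5 10.0% of their wild type 22G-RNAs. In each of these the *mut-16* and wild type values did not overlap. *mut-16* replicate 3 had the highest *mut-16* value at 24 of 34 loci, and without that library 34 of 34 loci were still called lower (median -5.59).

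**Figure D2:**
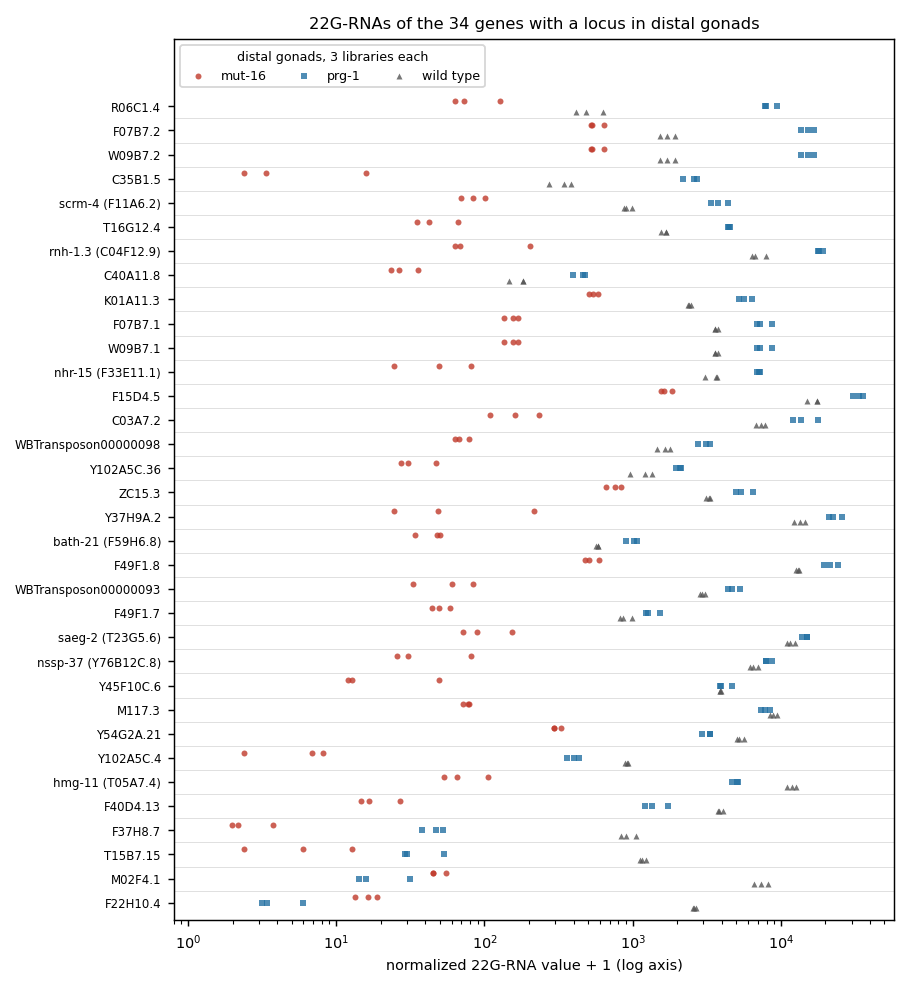
Normalized 22G-RNA value plus 1 (log axis) of the 34 members with a locus in each distal gonad library, *mut-16* (circles), *prg-1* (squares) and wild type (triangles), ordered by the change in *prg-1*. All *mut-16* values lie left of wild type, *prg-1* values lie right of wild type at the top of the plot, and they lie far left of it in the bottom 4 rows.

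In *prg-1* gonads the same loci went in different directions. 22G-RNAs were higher than in wild type at 19 of 34 loci, lower at 8 and without a call at 7 (limma as above). Over all features 15.3% were higher and 47.3% lower, and over all WAGO-class loci 16.2% were higher and 57.9% lower. The median log2 change was 0.79 for members, against -1.39 for WAGO-class loci. Counted once for identical rows, 17 loci were higher, 8 lower and 7 without a call. The mean *prg-1* value ran from 0.122% to 1645% of the wild type mean, with a median of 173% for members and 38.6% for WAGO-class loci tested. Here too the class was not matched to the members, whose wild type 22G-RNA levels were higher.

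The direction of many of these changes depends on the scaling of the libraries. Scaled on miRNAs alone, 5 member loci were higher and 11 lower in *prg-1* with a median of -0.45, while 3.95% of WAGO-class loci were higher and 75.1% lower with a median of -2.62. The whole distribution moved by that choice, with the median of all features at -1.71 in place of -0.42.

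**Figure D3:**
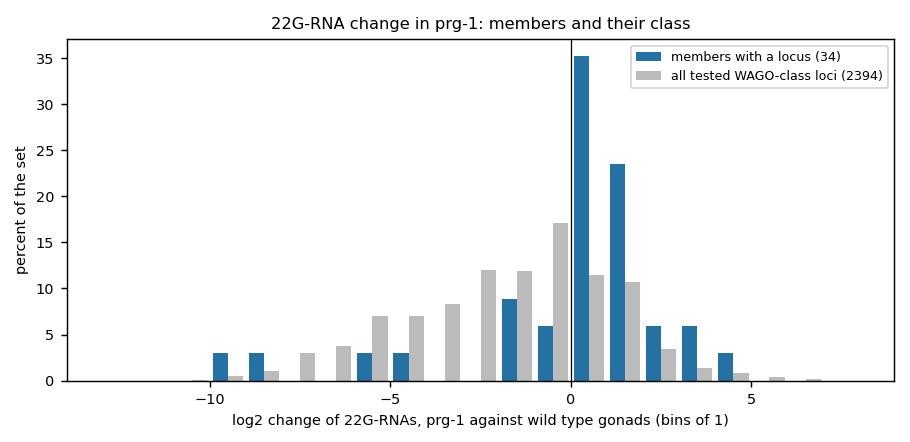
Share of loci (percent of the set) in bins of 1 log2 unit of the 22G-RNA change in *prg-1* against wild type gonads, for the 34 members with a locus and for all WAGO-class loci tested. Member loci are most frequent between 0 and 2, at 35.3% and 23.5% of the set, where the class has 11.4% and 10.7%.

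The widest rise was at R06C1.4, whose 22G-RNAs were at 7854, 7896 and 9422 in *prg-1* gonads, against 634, 483 and 412 in wild type gonads (log2 change 4.06, SE 0.27, adjusted p = 5.2e-06, limma). Its mRNA, given above, was lower in all *prg-1* libraries than in wild type. F07B7.2 and W09B7.2 22G-RNAs were at 13594, 15357 and 16779 in *prg-1* gonads, against 1942, 1691 and 1531 in wild type gonads (3.15, SE 0.11, adjusted p = 9.9e-09). C35B1.5 gave 2198, 2583 and 2728 in *prg-1*, against 345, 273 and 384 in wild type (2.91, SE 0.66, adjusted p = 0.0056). All *prg-1* values lay above all wild type values in these genes, and their changes stayed above 0 with miRNA scaling.

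*scrm-4* 22G-RNAs rose by 2.06 on the log2 scale (SE 0.14, adjusted p = 4.3e-07, limma), with 3379, 3754 and 4428 in *prg-1* gonads, against 870.2, 899 and 986 in wild type gonads. *rnh-1.3* 22G-RNAs were at 17889, 18128 and 19311 in *prg-1* gonads, against 7923, 6665 and 6389.9 in wild type gonads (1.40, SE 0.43, adjusted p = 0.024), and this was 0.17 without a call with miRNA scaling. F15D4.5, at 30878, 35746 and 33859 in *prg-1*, against 17550.3, 17546 and 15111 in wild type, had a change of 1.00 that was -0.24 with miRNA scaling.

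**Figure D4:**
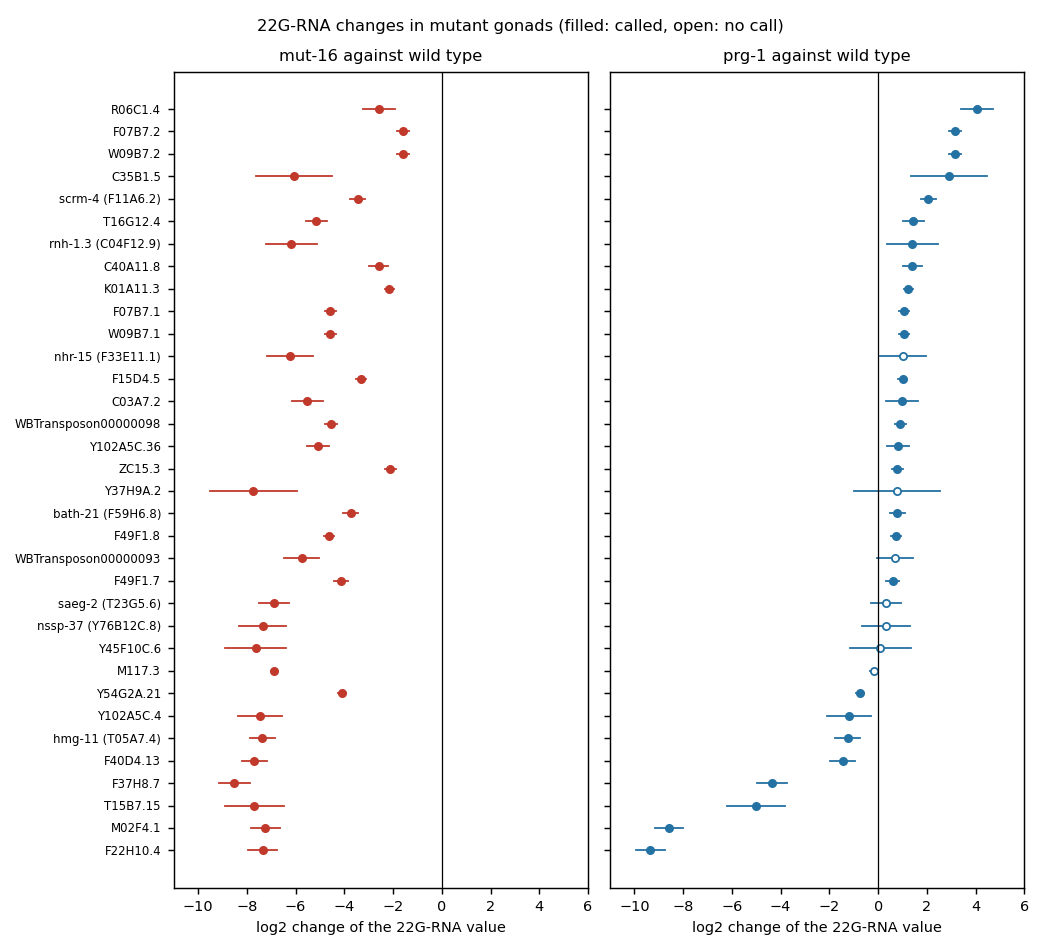
Log2 change of 22G-RNAs in *mut-16* against wild type gonads (left) and in *prg-1* against wild type gonads (right) for the 34 loci, with 95% intervals from limma. Filled points are called and open points have no call. All 34 points on the left are below 0, and those on the right run from 4.06 at R06C1.4 to -9.34 at F22H10.4.

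The 22G-RNA change in *prg-1* was also set beside the mRNA values there. Of the 19 loci with higher 22G-RNAs in *prg-1*, 8 had all *prg-1* mRNA values below wild type and 11 did not, and 7 had a *prg-1* mRNA ratio of 1 or over, such as C03A7.2 at 1.45, *bath-21* at 1.41 and F15D4.5 at 1.32. Of the 8 rows with a *prg-1* mRNA ratio under 0.5, 7 had a locus, and 22G-RNAs were higher in *prg-1* at all 7. Those were R06C1.4, Y102A5C.36, C40A11.8 and the F07B7 and W09B7 rows, or 5 distinct profiles. With miRNA scaling the change was 0.16 and not called at C40A11.8, -0.42 at Y102A5C.36 and -0.18 at F07B7.1 and W09B7.1. Of 9 rows with a locus and all *prg-1* mRNA values below wild type, 8 had higher 22G-RNAs in *prg-1*. The mRNA values had chosen the members, so these counts are a description and no relation is read from them.

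At 8 loci the 22G-RNAs fell in *prg-1*, and at 4 of them to under 5% of wild type. F22H10.4 22G-RNAs were at 4.98, 2.39 and 2.16 in *prg-1* gonads, against 2679, 2546 and 2579 in wild type gonads (log2 change -9.34, a value that depends on the added 1). M02F4.1 gave 14.9, 13.2 and 30.3 in *prg-1*, against 7299, 8215 and 6624 in wild type (-8.58, SE 0.26, adjusted p = 1.1e-08, limma). T15B7.15 and F37H8.7 changed by -5.02 and -4.35. These loci had lost their 22G-RNAs in both mutants.

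Their mRNAs, by the rule, did not reach 1.5 times wild type in *prg-1*. M02F4.1 mRNA was at 168, 149 and 155 in *mut-16* gonads and 34.03, 46.3 and 37.2 in *prg-1* gonads, against 43.7, 25.0 and 37.8 in wild type gonads. F22H10.4 mRNA was at 82.2, 81.7 and 91.7 in *mut-16*, 10.1, 20.1 and 13.4 in *prg-1* and 20.4, 24.1 and 13.0 in wild type. For both, *prg-1* and wild type values overlapped and *mut-16* values stood above. Over the 8 members with lower 22G-RNAs in *prg-1*, the *prg-1* mRNA ratio ran from 0.726 to 1.28 and the *mut-16* mRNA ratio from 3.08 to 11.9.

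The other 4 lower loci kept a good part of their 22G-RNAs in *prg-1*. *hmg-11* was at 4681, 5049.9 and 5143 in *prg-1* gonads, against 12580.5, 11919 and 11011 in wild type gonads (log2 change -1.25, SE 0.22, adjusted p = 0.0011, limma). F40D4.13, Y102A5C.4 and Y54G2A.21 changed by -1.46, -1.20 and -0.73. The 7 loci without a call included *saeg-2* (0.32, 95% interval -0.28 to 0.92), *nhr-15* (1.02, 0.08 to 1.97, adjusted p = 0.054) and M117.3 (-0.17, -0.33 to -0.01, adjusted p = 0.056).

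The mutants were then compared with each other, in the same fit. 22G-RNAs were lower in *mut-16* than in *prg-1* gonads at 32 of 34 loci and higher at 2, with a median log2 difference of -5.64. Of all features tested 23.9% were lower and 35.6% higher, and of WAGO-class loci 68.3% were lower and 3.43% higher. The widest difference was at C35B1.5, with 1.38, 2.37 and 14.8 in *mut-16* gonads, against 2198, 2583 and 2728 in *prg-1* gonads (-8.96, SE 0.66, adjusted p = 9.4e-06, limma). The 2 exceptions were F22H10.4 (2.00) and M02F4.1 (1.33), with under 1% of the wild type value left in either mutant.

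Other sets of rows gave other counts in the same contrasts. Of 40 loci of rows raised in both mutants, 40 were lower in *mut-16*, and in *prg-1* 5 were higher, 29 lower and 6 without a call, with a median of -1.57. Of 38 loci of rows with a *prg-1* ratio between the limits, 8 were higher, 21 lower and 9 without a call in *prg-1*, with a median of -0.77. These sets share libraries with the members and were chosen by mRNA in *prg-1*, and the difference between sets was not tested.

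Wild type distal gonads were also compared with wild type whole animals, in tables scaled on their own. The wild type gonad mRNA libraries are those whose values the rule used, so the mRNA part is a description with no test of the members. Of 42 rows, 36 passed the low-value filter, 11 of them through the gonad libraries alone, and 9 of those 11 were among the higher ones. In the fit, 19 members came out higher in gonads, 7 lower and 10 without a call, where 26.1% of all 12761 mRNAs came out higher and 52.6% lower. Nothing is read from this count, which was 12 higher of 33 without wild type gonad replicate 3.

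**Figure D5:**
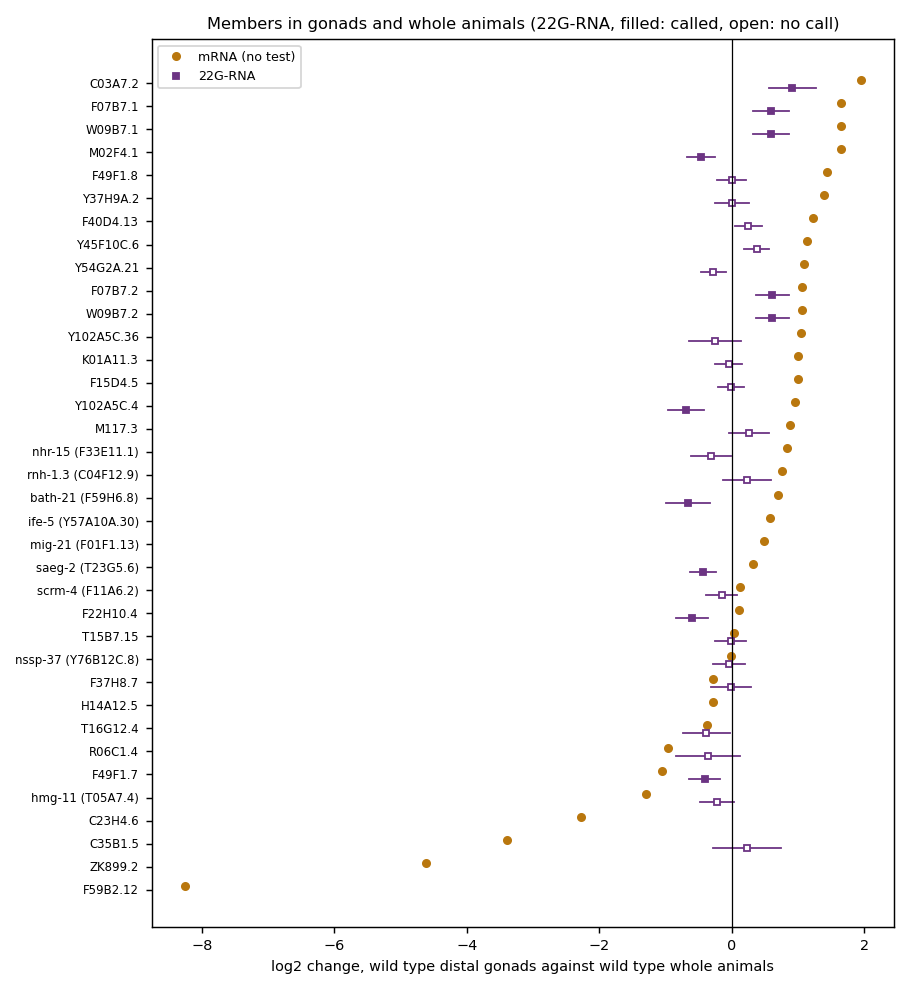
Log2 change of mRNA (circles) and 22G-RNA (squares) in wild type distal gonads against wild type whole animals for the 36 members with an mRNA above the filter. mRNA points carry no test, and 22G-RNA points have 95% intervals from limma, filled where called and open where not. mRNA changes run from 1.95 at C03A7.2 to -8.25 at F59B2.12, and 22G-RNA changes lie within 1 log2 unit of 0.

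*rnh-1.3* mRNA was at 257, 255 and 309.9 in gonads, against 140.0, 188 and 156 in whole animals (log2 change 0.77). The F07B7.2 and W09B7.2 rows gave 97.5, 103 and 125 in gonads, against 54.5, 41.2 and 59.2 in whole animals (1.07). *bath-21* mRNA was at 114, 82.3 and 93.3 in gonads, against 78.2, 60.2 and 43.0 in whole animals (0.70). The gonad values of all these genes lay above their whole animal values.

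Other members had less mRNA in gonads, among them F59B2.12, ZK899.2 and C23H4.6, which have no 22G-RNA locus. F59B2.12 was at 0, 0 and 1.07 in gonads, against 412, 225 and 629 in whole animals. ZK899.2 was at 23.4, 22.3 and 32.2 in gonads, against 590.0, 668 and 700.1 in whole animals (-4.61). C35B1.5 was at 86.8, 91.8 and 74.0 in gonads, against 779, 1004 and 916 in whole animals (-3.40). The log2 changes of *hmg-11* and R06C1.4 were -1.30 and -0.97. The groups did not overlap in any of these genes.

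22G-RNAs of the members were close to even between gonads and whole animals. Of 34 loci, 6 were higher, 6 lower and 22 without a call, with a median log2 change of -0.03. Over 7191 features tested, 31.9% were higher and 23.2% lower, and over 2421 WAGO-class loci 5.45% were higher and 34.8% lower. With library totals made equal, 11 member loci were higher and 1 lower.

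The higher loci were C03A7.2 (0.91), ZC15.3 (0.69) and the 4 F07B7 and W09B7 rows (0.59 to 0.61). The lower ones were Y102A5C.4, *bath-21*, F22H10.4, M02F4.1, *saeg-2* and F49F1.7, at -0.68 to -0.41. *bath-21* 22G-RNAs were at 215, 219 and 227 in gonads, against 414, 288 and 361 in whole animals (-0.67, SE 0.14, adjusted p = 0.0059, limma), the opposite order to its mRNA values. C35B1.5, with much more mRNA in whole animals, had 22G-RNA values of 132, 103 and 151 in gonads, against 111, 135 and 84.0 in whole animals, which overlapped.

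Genes of the 22G-RNA pathways were read from a list set by role. Of 44 such mRNAs, 3 were higher and 5 lower in *mut-16* gonads, against 15.5% and 4.6% of all mRNAs tested. *parn-1*, the exonuclease that trims piRNAs, was at 4163 ± 106 in *mut-16* and 1554 ± 73.1 in wild type gonads (log2 change 1.42, adjusted p = 1.6e-08, limma). The others higher were *rde-11* (0.76), an RNAi factor, and *wago-2* (0.44), a WAGO Argonaute. The lower ones were *mut-16* itself (-1.12), the Argonaute genes *wago-4* (-1.04), *sago-2* (-2.43) and *csr-1* (-0.46), and *eri-7* (-2.86), part of the helicase gene of the endogenous RNAi pathway. None of these 44 genes is a member. *parn-1*, *rde-11* and *wago-2* mRNAs were also higher in *prg-1* gonads, by 1.46, 0.63 and 0.55. There 5 of the 44 were higher and 2 lower, against 20.7% and 9.53% of all mRNAs tested.

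Of 31 pathway genes with a 22G-RNA locus, 7 had higher and 10 lower 22G-RNAs in *mut-16*, a share near that of all features tested (23.7% higher and 33.6% lower). *parn-1*, *rde-11* and *wago-2*, with higher mRNA, had lower 22G-RNAs at -2.06, -2.54 and -1.74, and in *prg-1* at -2.55, -2.50 and -2.45. Among genes with lower mRNA in *mut-16* gonads, *mut-16*, *csr-1* and *eri-7* also had lower 22G-RNAs there, at -1.73, -0.91 and -3.47. The 22G-RNAs of *wago-4* and *sago-2* had no call, and a relation between mRNA and 22G-RNA changes was not tested. *eri-6* 22G-RNAs were at 926 ± 137 in *mut-16* and 29714 ± 798 in wild type gonads (log2 change -5.01, adjusted p = 2e-10, limma). The higher loci were *wago-1*, *nyn-1*, *dcr-1*, *eri-5*, *mut-7*, *rde-2* and *eri-1*, at 0.40 to 0.85, and this count went to 0 with miRNA scaling and to 21 with library totals made equal.

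The members' neighbours on the chromosome were read from the gene order in RefSeq. Of the matched members, 8 lay next to another member, in the pairs F07B7.1 and F07B7.2, W09B7.1 and W09B7.2, F49F1.7 and F49F1.8, and Y102A5C.4 and Y102A5C.36. Of 35 other neighbours with a value of at least 10 in *mut-16* or wild type gonads, 6 (17.1%) had a *mut-16* ratio of at least 2.5, against 12.3% of 9126 other genes at that level, and the median ratio was 1.16, against 1.00. Beside *rnh-1.3*, *fce-1* was at 2474 in *mut-16*, 2360 in *prg-1* and 2398 in wild type gonads. C04F12.16 was at 15.2 in *mut-16*, 53.1 in *prg-1* and 0.59 in wild type gonads.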

How the data were processed

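The deposited tables hold normalized signal values per mRNA and per small RNA feature. For mRNA, the authors used Trimmomatic 0.35 for adapters, STAR 2.5.0a for alignment and RSEM 1.3.0 for quantification. They counted small RNAs with their own scripts and name DESeq2 1.18.1; how the deposited values were scaled is not given in the sources used here. Small RNA values were whole multiples of 1 step to within 0.01 of a read in 100% of values, and mRNA values in 48.4% to 65.1%, so only small RNA depth was recovered.

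limma 3.58.1 (R 4.3.3; trend, robust) was run on log2(value + 1) over features reaching 10 in at least 3 libraries, with the 9 gonad libraries of an assay in 1 fit and gonads against whole animals in another. Features were called at 1.3-fold and p under 0.05 after Benjamini-Hochberg adjustment. edgeR 4.0.16 and DESeq2 1.42.0 on recovered reads were alternatives, without *prg-1* replicate 1, whose step was too near 1. Same-numbered mRNA libraries of *mut-16* and wild type gonads deviated together (correlations of 0.124 to 0.547), and in no other groups compared were all correlations above 0.1. Fits were tested on simulated data. Fold changes understate low genes.

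Members and lists were chosen with earlier results of these data known. Members were named by the highest *mut-16* mRNA value, ratio or wild type 22G-RNA value (10 each), the 5 widest calls each way per contrast, nearness to a threshold, a gene name, or a neighbouring member. H14A12.5, K01A11.3 and WBTransposon00000003 were named after their values were seen. Protein identity was not computed. Gene names come from RefSeq WBcel235, and its coordinates were not used because the files follow another release. Transposon family tables were not used.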

Additional observations from a re-analysis of the deposited data

How the results depend on the processing

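The planned settings left the direction and the number of 22G-RNA losses in *mut-16* (34 of 34) and of differences between mutants (32 lower, 2 higher) unchanged, including with identical rows counted once (32 lower, and 30 lower with 2 higher), a setting added after the values were seen. Medians moved with scaling. Library totals made equal gave -4.70 for *mut-16* against wild type, 0.48 for *prg-1* against wild type and -4.70 between mutants. miRNA scaling gave -6.36, -0.45 and -5.43, TMM over all features gave 0.52 for *prg-1*, and edgeR gave -5.99 between mutants. With miRNA scaling 5 member loci were called higher in *prg-1* in place of 19, and 10 named loci changed sign there: C03A7.2 (-0.26), F07B7.1 and W09B7.1 (-0.18), F15D4.5 (-0.24), F49F1.7 (-0.64), F49F1.8 (-0.50), *bath-21* (F59H6.8, -0.45), *saeg-2* (T23G5.6, -0.91), Y102A5C.36 (-0.42) and ZC15.3 (-0.45). Leaving out single libraries gave 17 to 19 higher and 7 to 8 lower in *prg-1*, with medians of 0.72 to 0.85, and medians of -5.59 to -5.16 in *mut-16* and -5.71 to -5.54 between mutants.

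For gonads against whole animals, mRNA gave 12 to 16 higher, 5 to 8 lower and medians of 0.55 to 0.81 with a library left out; the 12 came without wild type gonad replicate 3. 22G-RNAs gave 6 to 7 higher, 5 to 8 lower and medians of -0.0802 to -0.00425. Library totals made equal gave 11 higher, 1 lower and a median of 0.27, TMM over all features 3 lower and a median of 0.0973, and edgeR a median of -0.13.

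Of pathway mRNAs, 11 were lower with no fold threshold, and 3 higher and 5 to 7 lower with a library left out. Pathway 22G-RNA loci called higher came to 21 with totals made equal, 1 with TMM over all features, 0 with miRNA scaling, 11 with no fold threshold and 4 with edgeR, and 5 to 7 with a library left out, while 19 were lower with miRNA scaling. The rule found 64 rows with a *mut-16* limit of 2 and 28 with a limit of 4, 30 with a mean limit of 100, 62 with a *prg-1* limit of 2 and 34 with a stricter one, and 39 to 47 with a library left out. Of the values of single named members under all settings, 2618 kept their direction and call, 10 changed sign, 47 lost a call and 28 gained one. The cause was not tested.

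Replicate numbers were tried as a replicate block. It gave 34 lower in *mut-16*, 19 higher and 8 lower in *prg-1*, 18 higher and 7 lower for gonad mRNA, 6 and 6 for gonad 22G-RNAs, and 3 higher and 6 lower for pathway mRNAs, and changed no call among named members.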
